A study of Rattus norvegicus with 6 samples.

Results

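The genes described here are 9 immediate early genes, Fos, Fosb, Fosl1, Jun, Junb, Egr1, Ier2, Nr4a1 and Dusp1, in islets of fetal rats. They were chosen by symbol from a list and not by their values, although earlier results of these data were known. Of the 9, 9 were found among the 17321 genes counted. The islets came from Sprague Dawley fetuses at gestational day 22. In the libraries labelled high glucose (3 libraries) the left uterine horn had been infused with glucose (4 mg/min, 48 h, starting at gestational day 20), and in the libraries labelled control (3 libraries) the islets came from the right, normoglycemic horn of the same dam. In both groups the islets of 2 pancreata were pooled for a library, released with collagenase, picked by hand and then cultured in RPMI at 5 mM glucose, and RNA was taken after 24 h of this culture and not at the end of the infusion. The horn letter in the deposited file names is the opposite of that in the sample titles in 6 of 6 libraries. Directions are those of the treatment labels, and the file names would turn every sign. Horn side and treatment cannot be told apart.

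Immediate early genes are transcribed within minutes of a stimulus from factors already present in the cell, without new protein synthesis. MAP kinase cascades and calcium or cyclic AMP signals act on SRF with its ternary complex partners and on CREB at the promoters of these genes, and the transcripts are degraded quickly. Fos and Jun proteins pair into the AP-1 transcription factor, Egr1 and Nr4a1 bind DNA by themselves, and Dusp1 removes phosphate from the kinases and so closes the loop. In islets these genes are known to respond to glucose, to depolarization and to growth factors, and in many tissues they are also known to rise when cells are dissociated with enzymes.

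None of the 9 genes passed the test between the labelled groups. Signs differed between dams for 7 of them, while 1 was higher and 1 lower in all 3 pairs. Over all genes tested 11.7% were higher and 11.3% lower in all 3 pairs, so mixed signs are no trait of the 9. With edgeR's quasi-likelihood test, dam as a block and adjustment over 12276 genes, 0 of the 9 passed at an adjusted p below 0.05, and 0 had an unadjusted p below 0.05. DESeq2 and limma voom also called 0 of them. Over all genes tested, 0.0163% were called and 4.82% had an unadjusted p below 0.05. Fosl1 passed the test between dams, and the other 8 did not.

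RefSeq holds a promoter for 7 of the 9 genes in the table used, build GRCr8. Fos and Jun had none there, so their promoters were not searched. The promoters of 4 are printed, because Egr1 and Nr4a1 had the widest swings between pairs, Fosl1 was the gene called between dams, and Dusp1 was lower in all 3 pairs. Each shows the 250 bases before the start, on the plus strand, at chr18:26736828-26737077 for Egr1, chr7:134259888-134260137 for Nr4a1, chr1:212183635-212183884 for Fosl1 and chr10:17184603-17184852 for Dusp1. Capitals mark CArG boxes, the sites that SRF binds, and the cyclic AMP response element TGACGTCA or its short core TGACG on either strand, where CGTCA is the core on the other strand.
Egr1: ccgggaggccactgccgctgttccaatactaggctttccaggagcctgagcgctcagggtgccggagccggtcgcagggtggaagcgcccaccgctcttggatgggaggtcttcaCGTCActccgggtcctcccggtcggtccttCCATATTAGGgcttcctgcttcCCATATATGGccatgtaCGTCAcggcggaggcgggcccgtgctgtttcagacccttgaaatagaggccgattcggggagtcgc
Nr4a1: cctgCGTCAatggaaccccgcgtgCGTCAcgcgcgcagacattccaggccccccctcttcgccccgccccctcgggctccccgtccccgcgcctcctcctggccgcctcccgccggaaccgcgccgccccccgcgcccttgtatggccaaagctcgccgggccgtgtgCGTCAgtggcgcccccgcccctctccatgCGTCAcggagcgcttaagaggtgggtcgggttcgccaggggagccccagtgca
Fosl1: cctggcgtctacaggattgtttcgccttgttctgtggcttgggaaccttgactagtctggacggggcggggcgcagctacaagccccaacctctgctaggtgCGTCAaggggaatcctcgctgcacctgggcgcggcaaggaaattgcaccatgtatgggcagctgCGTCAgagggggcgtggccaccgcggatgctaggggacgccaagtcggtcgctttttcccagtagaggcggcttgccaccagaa
Dusp1: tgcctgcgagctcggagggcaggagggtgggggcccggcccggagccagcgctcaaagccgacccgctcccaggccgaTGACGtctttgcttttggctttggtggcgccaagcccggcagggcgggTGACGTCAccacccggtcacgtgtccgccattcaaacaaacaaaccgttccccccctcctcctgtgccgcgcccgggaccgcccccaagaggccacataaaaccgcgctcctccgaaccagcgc

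Egr1 held 2 CArG boxes, CCATATTAGG starting 105 bases and CCATATATGG starting 83 bases before the start, and 2 copies of the short core. A CArG box was in 1 of the 7 promoters and in 1.5% of 33469 rat promoters cut to the same length. Dusp1 and Ier2 held TGACGTCA, and 1.59% of all promoters did. The short core, which also lies within TGACGTCA, was in 6 of the 7 promoters against 18.22% of all, with 4 copies in Nr4a1, 2 in Fosl1 and 0 in Fosb. The AP-1 site TGANTCA was in 0 of the 7 and in 6.34% of all, and the EGR site GCGNGGGCG was in Nr4a1 and in 4.29% of all. Both strands were searched for each motif, and no other matches overlapped. These matches describe letters in a window and are not measurements of binding.

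Levels between genes were compared per length, as TPM (transcript abundance scaled by exon length and by the library's sum). Junb was the most abundant at 265 ± 80.4 TPM (SD over 6 libraries), at the 95.2 percentile of the genes tested by mean TPM. Ier2 followed at 126.02 ± 36.2, Jun at 124.83 ± 37.2 and Egr1 at 102 ± 44.7 TPM. These 4 genes formed an upper tier, each above every other member in 6 of 6 libraries. A lower tier held Dusp1 at 27.5 ± 8.49 TPM, Fosl1 at 26.8 ± 15.2, Nr4a1 at 20.8 ± 13.7 and Fos at 14.3 ± 7.03. Fosb was the lowest at 2.23 ± 1.61 TPM, at the 14.0 percentile. The ranges of Egr1 and Dusp1 did not overlap, nor did those of Fos and Fosb. Junb exceeded Ier2 in 6 of 6 libraries although their ranges over libraries overlapped. The order of the other neighbours was not fixed, since Ier2 exceeded Jun in 3 of 6 libraries, Jun exceeded Egr1 in 4, Dusp1 exceeded Fosl1 in 2, Fosl1 exceeded Nr4a1 in 3 and Nr4a1 exceeded Fos in 4. The Jun partners of AP-1 were thus present at higher transcript levels than the Fos partners in all libraries.

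Differences between libraries are given in CPM, counts scaled to TMM-adjusted library sizes, which lets a gene be compared across libraries but not with another gene. Values are listed for dam pairs 1, 2 and 3 in that order.

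**Figure D1:**
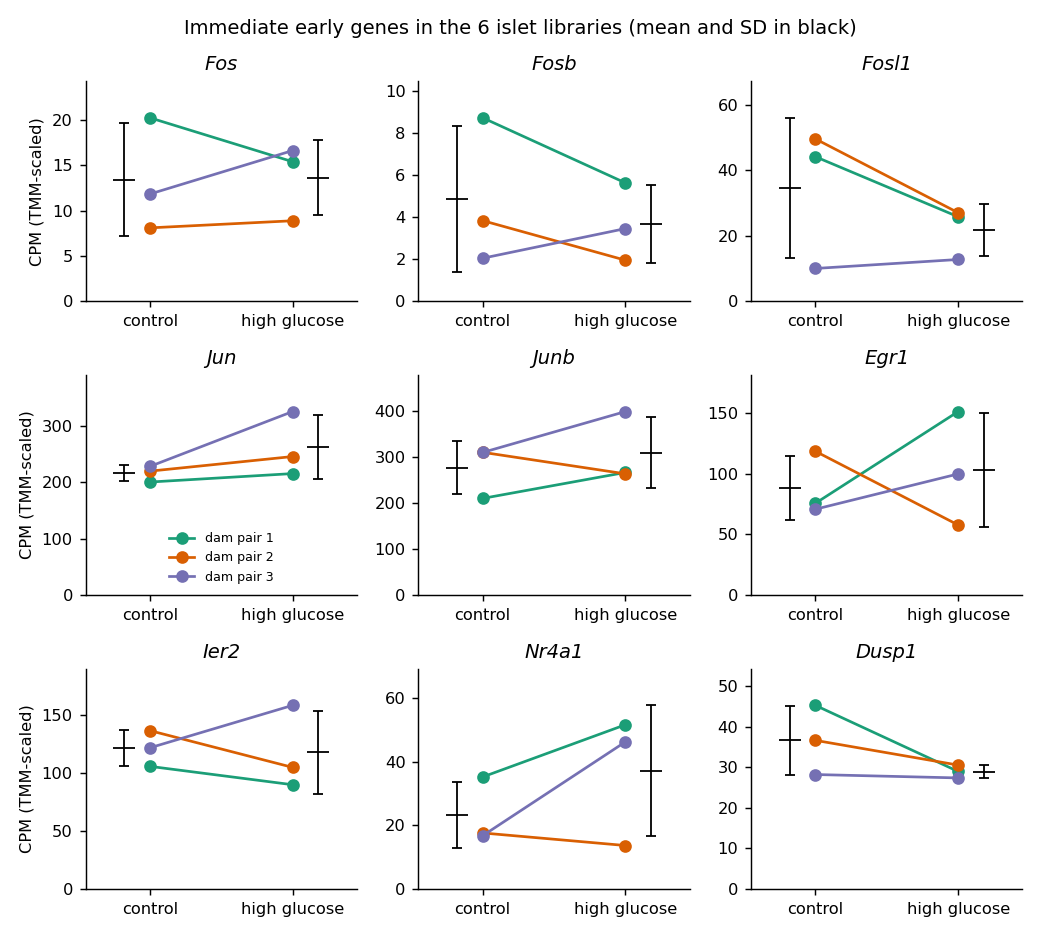
CPM (TMM-scaled, y axis from 0) of each of the 9 genes in control and high glucose libraries (x axis). Coloured lines join the libraries of a dam pair, and the black marks are the mean and SD of 3 libraries. The lines of most genes cross or slope in different directions, and for Fosl1 both libraries of pair 3 (10.03 and 12.8 CPM) lie below the other 4.

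Fos, the partner of Jun that is most used as a marker of recent stimulation (rn6 chromosome 6, 109300433 to 109303299), measured 20.3, 8.10 and 11.8 CPM in the control libraries and 15.4, 8.89 and 16.6 CPM in those labelled high glucose. The highest and the lowest value were both in control libraries, and the groups overlapped. Its fitted log2 difference was 0.07 (SE 0.259, 95% interval -0.50 to 0.65). Within pairs it was lower in pair 1 and higher in pair 3, both beyond counting error, and in pair 2 the counts of 131 and 182 gave a fold of 1.10 with a 95% counting interval of 0.871 to 1.38.

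Fosb, a paralogue of Fos whose protein is longer lived in some spliced forms (chromosome 1, 80214691 to 80221417), measured 8.72, 3.84 and 2.05 CPM in the control libraries and 5.63, 1.95 and 3.46 CPM in those labelled high glucose. The groups overlapped, and the control library of pair 1 was the highest. Its fitted log2 difference was -0.29 with the wide 95% interval of -1.23 to 0.66. Fosb had 40 to 301 counts per library, the fewest of the 9 genes.

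Fosl1, which encodes the late-rising Fos family protein FRA1 (chromosome 1, 220826560 to 220835066), measured 44.2, 49.6 and 10.03 CPM in the control libraries and 25.8, 27.1 and 12.8 CPM in those labelled high glucose. In pairs 1 and 2 the high glucose library had 0.585 and 0.545 of the control level, and in pair 3 it had 1.27 times that level. Each of these 3 counting intervals excluded 1, so the pairs disagreed by more than counting error. The fitted log2 difference was -0.44 (SE 0.268, 95% interval -1.04 to 0.16, edgeR adjusted p = 1).

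Jun, the core subunit of AP-1 (chromosome 5, 114011186 to 114014277), measured 200, 220 and 228 CPM in the control libraries and 215, 246 and 325 CPM in those labelled high glucose. It was the only member higher in all 3 pairs, by folds of 1.07 to 1.43, but its groups overlapped. Over all genes tested 11.7% were higher in all 3 pairs. The fitted log2 difference was 0.26 (SE 0.186, 95% interval -0.15 to 0.67, edgeR adjusted p = 1).

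Junb, the Jun family member that often opposes Jun (chromosome 19, 26092972 to 26094756), measured 211, 311 and 311 CPM in the control libraries and 267, 264 and 400 CPM in those labelled high glucose. It was higher in pairs 1 and 3, by folds of 1.27 and 1.29, and lower in pair 2, at 0.849. The groups overlapped, and the fitted log2 difference was 0.16 (SE 0.200, 95% interval -0.29 to 0.60).

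Egr1, a zinc finger activator induced by glucose and growth factors in beta cells (chromosome 18, 27657903 to 27660101), measured 75.6, 118.5 and 70.7 CPM in the control libraries and 151, 57.8 and 99.8 CPM in those labelled high glucose. The highest and the lowest of the 6 values were both in high glucose libraries. Its folds within pairs, 2.00, 0.487 and 1.41, spanned the widest range of the 9 genes. The fit gave 0.17 with a 95% interval from -0.93 to 1.27, which includes differences of nearly 2-fold in either direction.

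Nr4a1, an orphan nuclear receptor induced by cyclic AMP and calcium (chromosome 7, 142912309 to 142920215), measured 35.3, 17.6 and 16.7 CPM in the control libraries and 51.7, 13.7 and 46.3 CPM in those labelled high glucose. Its high glucose libraries of pairs 1 and 3 exceeded all control libraries, while that of pair 2 was the lowest of the 6. The largest difference within a pair of any of the 9 genes was that of Nr4a1 in pair 3, with a fold of 2.77 (95% counting interval 2.5 to 3.07). The fitted log2 difference of 0.56 (SE 0.336, 95% interval -0.22 to 1.34, edgeR adjusted p = 1) was also the largest of the 9. It rested on pair 3: without that pair it was 0.11, and Fosl1 (-0.82) and Fosb (-0.79) were then larger in size, while without pair 2 it was 1.01.

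Ier2, a nuclear protein of the early serum response (chromosome 19, 25774146 to 25775670), measured 106, 137 and 122 CPM in the control libraries and 90.0, 105 and 159 CPM in those labelled high glucose. It was lower in pairs 1 and 2 and higher in pair 3, and the fitted log2 difference was -0.08 (SE 0.200, 95% interval -0.52 to 0.36).

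Dusp1, a phosphatase that inactivates MAP kinases (chromosome 10, 16970642 to 16973425), measured 45.3, 36.7 and 28.2 CPM in the control libraries and 29.0, 30.6 and 27.4 CPM in those labelled high glucose. It was the only member lower in all 3 pairs, against 11.3% of all genes tested, and in pair 3 the fold of 0.970 lay within counting error. The high glucose libraries had an SD of 1.58 CPM and the control libraries 8.54 CPM. The fitted log2 difference was -0.32 (SE 0.208, 95% interval -0.78 to 0.14, edgeR adjusted p = 1). The groups overlapped for all 9 genes. They also did for most genes tested, with 3.31% not overlapping, so this is no trait of the 9.

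The 3 pairs gave different pictures of the same genes. In pair 1, 4 of the 9 genes were higher and 5 lower in the library labelled high glucose, all beyond counting error, with a median log2 difference of -0.23. In pair 2, 2 were higher and 7 lower, with a median of -0.36. In pair 3, 8 were higher and Dusp1 alone was lower, with a median of 0.49. The median over all genes tested was 0.00, 0.02 and -0.02 in the 3 pairs. The median absolute log2 difference of the 9 genes was 0.55, 0.36 and 0.49, against 0.27, 0.26 and 0.34 over all genes. Over the 3 pairs together, the median fitted log2 difference was 0.07 against 0.00 over all genes. The 9 genes are known to respond to shared signals, so counts of genes within a pair do not stand for separate observations. Counting intervals cover counting error only.

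**Figure D2:**
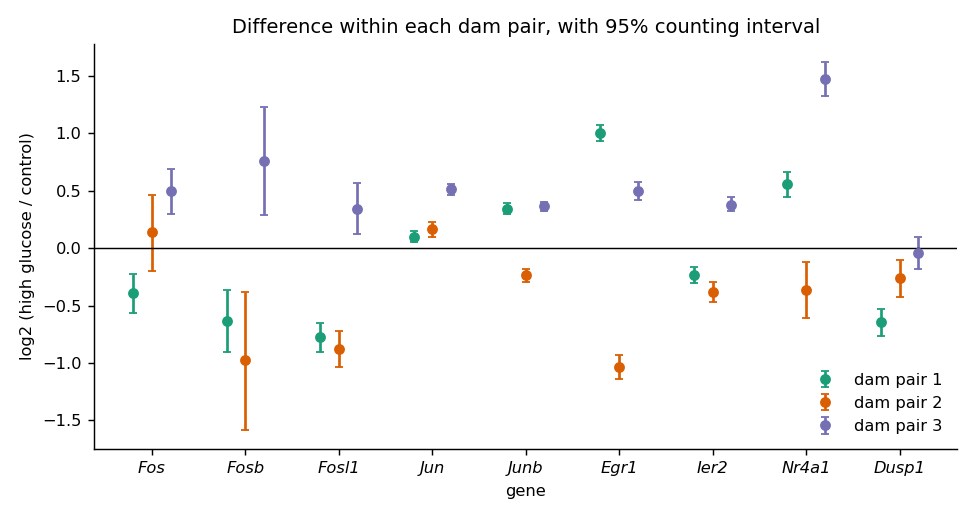
log2 ratio of high glucose to control within each dam pair (y axis) for each of the 9 genes (x axis). Bars are 95% counting intervals from the 2 libraries of a pair, which leave out variation between animals. Pair 3 lies above 0 for 8 genes and pair 2 below 0 for 7.

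Summed levels of cell type markers also differed within pairs. In pair 3 the summed level of 7 beta cell markers (Ins1, Ins2, Iapp, Pdx1, Nkx6-1, Slc2a2 and Slc30a8) was 22750 CPM in the control library and 4917 CPM in its partner, and that of the acinar markers 31.4 and 676 CPM. In pair 1 the beta cell sum went the other way, from 11130 to 18490 CPM, and in pair 2 from 13480 to 10750 CPM. Ins1 and Ins2 held most of this sum, and not every marker followed it. Iapp was lower in pair 1 (log2 difference -0.45) and the other beta cell markers higher. In pair 2 Slc2a2 (0.92), Iapp (0.25) and Slc30a8 (0.02) were higher and the others lower. Over the groups the sum ranged from 11130 to 22750 CPM in control and from 4917 to 18490 CPM in high glucose. None of the 7 was at 0 in any library, so beta cell RNA was detected in each, which does not show how pure the islets were. These sums are not scaled by length, so those of different cell types cannot be compared with each other. In mean TPM, Ins1 (24590) and Ins2 (21300) stood above the highest mesenchyme marker, Col3a1 (4110). Mesenchyme markers ranged from 15290 to 35330 and from 21050 to 29990 CPM, and duct markers from 2396 to 5590 and from 4583 to 9660 CPM. Immune markers ranged from 724 to 1062 and from 350 to 730 CPM, with 7 of 8 lower in all 3 pairs, where 11.3% of all genes tested were. Endothelial markers ranged from 690.5 to 849.6 CPM in control and from 300.9 to 683.3 CPM in high glucose. These sums did not overlap, but in pair 1 they were close, at 690.5 and 683.3 CPM. By gene, Tie1 and Cldn5 did not overlap and the other endothelial markers did, where 3.31% of all genes tested did not overlap. In the fit 6 of 6 were below 0, with a median log2 difference of -0.52, where 6054 of all 12276 genes were below 0. Erythroid markers ranged from 386 to 1518 and from 84.2 to 598 CPM, and 5 of the 5 tested were lower in all 3 pairs, with a median log2 difference of -3.22. Among these Car1, a carbonic anhydrase of red cells, was 1 of the 2 genes called over the whole table (edgeR adjusted p = 0.000793), with 655, 7 and 212 counts in the control libraries and 4, 0 and 1 in those labelled high glucose. Hba1, with at most 3 counts, was at 0 in 3 libraries. Of the acinar markers Pnlip was at 0 in 2 libraries and Ptf1a in 1. The part of these shifts in the values of the 9 genes was not tested. In pooled tissue, a different number of cells of a type and a different amount of RNA per cell cannot be told apart.

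Between dams, the term that dam, litter and islet preparation share, 1 of the 9 genes passed with edgeR's quasi-likelihood test, against 22.8% of all genes tested. The 9 genes thus did not exceed the share of genes that differ between dams. Fosl1 had a fitted log2 range of 1.66 from the highest dam (dam 2, mean 38.3 CPM) to the lowest (dam 3, mean 11.4 CPM), with an edgeR adjusted p of 0.0154. All 4 libraries of dams 1 and 2 lay between 25.8 and 49.6 CPM, above both libraries of dam 3, a separation that 8.45% of all genes tested showed. The call was lost without pair 2, where the range was 1.58 with an edgeR adjusted p of 0.0668, and without pair 3, where it was 0.12 with an edgeR adjusted p of 0.773. Duct markers were highest in dam 3 (5590 and 9660 CPM against 2396 to 4617 CPM in the other 4 libraries), and their part in the lower Fosl1 was not tested.

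Fos, Fosb and Nr4a1 were highest in the same dam, dam 1. Dam 2 was lowest for all of these in the fit, as it was for 5036 of 12276 genes tested. By mean CPM, Fosb was lowest in dam 3. The log2 ranges were 1.08 for Fos (edgeR adjusted p = 0.0724), 1.33 for Fosb (edgeR adjusted p = 0.094) and 1.39 for Nr4a1 (edgeR adjusted p = 0.0873), and none passed. Fos averaged 17.8 CPM in dam 1, 8.49 in dam 2 and 14.2 in dam 3, and both libraries of dam 2 lay below the other 4, as for 22.5% of all genes tested. Fosb averaged 7.18, 2.89 and 2.75 CPM, with dams 2 and 3 close together, and Nr4a1 43.5, 15.6 and 31.5 CPM. These ranges and calls depended on which pair was left out. Without pair 3 the 3 genes passed, with edgeR adjusted p of 0.0167 for Fos, 0.0279 for Fosb and 0.000397 for Nr4a1, and 31.5% of all genes were then called. Without pair 1 the ranges were 0.70 for Fos, 0.07 for Fosb and 0.82 for Nr4a1, with edgeR adjusted p of 0.158, 0.945 and 0.197. Without pair 2 they were 0.33, 1.39 and 0.61, with edgeR adjusted p of 0.627, 0.194 and 0.301. The other members ranged less, by 0.39 for Jun, 0.57 for Junb, 0.40 for Egr1, 0.53 for Ier2 and 0.39 for Dusp1, with edgeR adjusted p between 0.212 and 0.79.

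The 9 genes did not share a single profile. For each gene the log2 CPM was centred on its mean over the 6 libraries, and profiles were compared by the root mean square of their difference. Jun and Junb were the closest of 36 pairs of members, at 0.159, followed by Junb with Ier2 at 0.176 and Jun with Ier2 at 0.198. These 3 genes were highest in the high glucose library of pair 3 and had SDs of 0.25 to 0.31 log2 units over the libraries. The next closest pair, Ier2 with Dusp1, stood at 0.403. Fos and Nr4a1 were at 0.451, and Egr1 and Nr4a1 were both highest in the high glucose library of pair 1 and lowest in that of pair 2. Fosl1 stood farthest from the others, at 1.17 from Nr4a1 and 1.04 from Junb, its least similar members.

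The spread over the libraries also differed among the 9 genes. The SD of log2 CPM over the 6 libraries was 0.93 for Fosl1, 0.83 for Nr4a1 and 0.82 for Fosb, at the 88.1, 84.3 and 83.9 percentiles of all genes tested. It was 0.52 for Fos and for Egr1, close to the 0.44 median of all genes. Jun, Ier2, Junb and Dusp1 lay at the 15.9 to 27.2 percentiles.

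**Figure D3:**
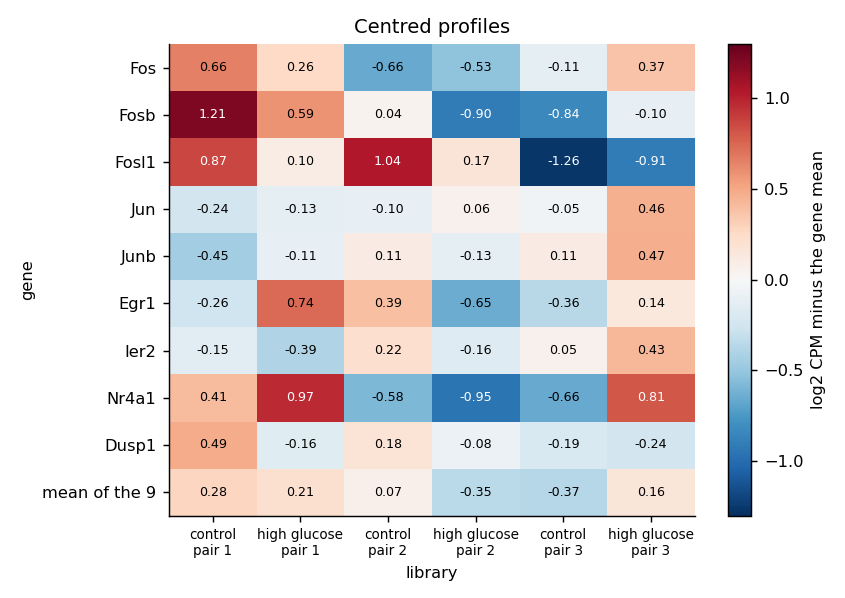
log2 CPM minus the mean of each gene over the 6 libraries (colour and printed value), with genes in rows and libraries in columns. Jun, Junb and Ier2 share their highest column, the high glucose library of pair 3, while Fosl1 is lowest in both libraries of that pair.

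Over 11409 genes with a mean count of at least 20, the 5 genes closest to the mean profile of the 9 were Maml1 at 0.0630, Trappc10 at 0.0730, Per1 at 0.0750, Cep97 at 0.0871 and Per3 at 0.0898, where the median over genes was 0.484. For Fos alone they were St6gal1 at 0.0596, Zfp498 at 0.0955, Zzz3 at 0.0959, Txlna at 0.103 and Trappc8 at 0.103, with a median of 0.609. With 6 libraries, many profiles lie close to any given one. The 9 members were left out of the ranking, and Per1 is the only gene of the 10 that is in the list of other immediate early genes.

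The next question was whether the genes around the 9 moved. Of 28 listed kinases and factors that act upstream, among them Srf, Elk1 and Creb1, 23 were matched by symbol and tested. Of these 0 passed, and 0 had an unadjusted p below 0.05, with edgeR. DESeq2 and limma voom called 0. The median log2 difference was 0.07. The highest values were 0.27 for Crtc1 (a CREB coactivator), 0.27 for Mapk8 (which encodes JNK1) and 0.24 for Crtc2, and the lowest were -0.35 for Map2k2 (a MAP kinase kinase), -0.16 for Rps6ka1 and -0.11 for Map2k4.

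Other immediate early genes were counted from a list of 45, of which 43 passed the filter on low counts. In edgeR 0 of the 43 passed, 3 had an unadjusted p below 0.05, and their median log2 difference was 0.00, with 21 above and 22 below 0. Their medians in the pairs, -0.04, -0.26 and 0.26, had the same signs as those of the 9 members. Ctgf, a matrix-associated growth factor gene induced through SRF and YAP, had the highest value and was higher in all 3 pairs, at 157, 95.2 and 285 CPM in the control libraries against 265, 158 and 625 CPM. Its groups overlapped. Its log2 difference was 0.87 (SE 0.189, edgeR adjusted p = 0.277), and DESeq2 called it. Nfkbiz, an inhibitor-like partner of NF-kappaB, stood at 0.67 and Nr4a3, a paralogue of Nr4a1, at 0.60. At the other end, Klf2 stood at -0.54, Klf4 at -0.48 and Csrnp1 at -0.40, all with an edgeR adjusted p of 1. Klf2 is known to be abundant in endothelium, and its log2 differences in the pairs were 0.23, -1.29 and -0.56. The medians over the 6 endothelial markers were -0.20, -1.28 and -0.44. In pair 1 Pecam1 (0.24) and Cdh5 (0.33) were above 0, as Klf2 was, and the other endothelial markers were below 0. The part of endothelial RNA in Klf2 was not tested. The 2 genes left out by the filter were Npas4, a factor induced by depolarization, with 0 to 17 counts per library, and Egr4 with 2 to 14.

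Feedback regulators, the phosphatases, Sprouty proteins and inhibitory bZIP factors that damp the response, had a median log2 difference of 0.17 over 21 genes, with 16 above 0, where it was 0.00 over all genes. In edgeR 0 passed and 1 had an unadjusted p below 0.05, Dusp2. That gene encodes a nuclear MAP kinase phosphatase most abundant in blood cells. It measured 49.0, 28.9 and 47.7 CPM in the control libraries and 26.7, 18.1 and 26.8 CPM in those labelled high glucose, so every control library exceeded every high glucose library. Its log2 difference was -0.80 (SE 0.196, edgeR adjusted p = 0.368), and DESeq2 called it. Immune markers were lower within the pairs as given above, and their part in Dusp2 was not tested. Batf3 and Batf were the next lowest, at -0.25 and -0.21. Dusp4 (0.47), Zfp36l1 (0.27) and Dusp10 (0.26) were the highest.

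Target genes of AP-1 and EGR had 6 of 21 at an unadjusted p below 0.05, against 4.82% of all genes, and 0 passing in edgeR, and 0 called by DESeq2 or limma voom. The median log2 difference was -0.03, with 5 genes higher and 5 lower in all 3 pairs, against 11.7% and 11.3% of all genes. Lif, a cytokine, had the highest value at 0.97 (edgeR adjusted p = 1), followed by Spp1 (osteopontin) at 0.76 (edgeR adjusted p = 0.705) and Il6 at 0.45. Spp1 is also abundant in duct cells and is 1 of the 7 duct markers. Its own value is their median, so that median cannot be set against it. The other duct markers ranged from 0.24 for Krt19 to 1.54 for Cftr. The part of duct RNA in Spp1 was not tested. The matrix metalloproteinase genes Mmp10 (-1.54), Mmp3 (-0.79) and Mmp9 (-0.67) were the lowest, with edgeR adjusted p of 0.89, 1 and 0.571. Mmp14 (0.18) and Mmp13 (0.09), of the same family, were above 0, and Mmp3 was higher in pair 2 (0.72). Mmp10 rested on the control library of pair 1, with 8.78 CPM there and 0.374 to 1.38 CPM in the other 5.

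Heat shock and stress genes, which collagenase digestion and handling are known to raise, had a median log2 difference of -0.07 over the 14 tested of 15, with 0 passing and 0 at an unadjusted p below 0.05 in edgeR, and 0 called by DESeq2 or limma voom. Hspa1a, the inducible HSP70, measured 59.5 CPM in the control library of pair 1 and 3.55 to 7.42 CPM in the other 5. That same library had the highest Fos, Fosb and Dusp1 of the 6, and the lowest Jun and Junb. The part of handling in these values was not tested. The log2 difference of Hspa1a was -1.38, with an SE of 1.2. Hspb1 stood at -0.53, Ddit3 at -0.42, Hsp90aa1 at 0.54, Dnaja1 at 0.13 and Hspd1 at 0.09. Hspa1a, Hspa1b and Hsp90aa1 have near-identical copies, so their counts are uncertain.

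**Figure D4:**
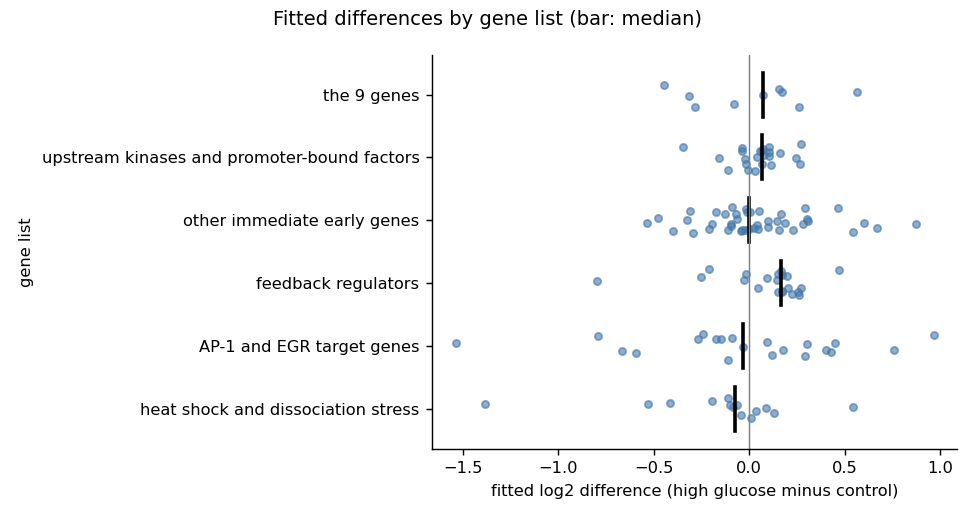
Fitted log2 difference, high glucose minus control (x axis), of each tested gene of 6 lists (y axis, points spread vertically for sight). The black bar is the median of a list, which lies between -0.07 and 0.17 for all 6, and no gene shown passed the edgeR test.

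Total counts lay between 18077841 and 30993532 per library, and each of the 9 genes had at least 40 counts in every library. P-values between the groups set the mean difference within pairs against its variation over these 3 pairs, estimated partly from all genes. Those between dams are set against the same variation.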

How the data were processed

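Messenger RNA of fetal islets was sequenced in 6 libraries, 3 per group, in 3 dam pairs. The deposited values are counts (raw read pairs assigned to each gene) that the authors made with featureCounts 1.5.1 (reverse strand, setting 2, mapping quality of at least 10, UCSC rn6 refGene annotation), per the file headers. Per the submitters' processing notes, STAR 2.5 was among the tools. The quality minimum removes reads of near-identical copies. Groups came from the treatment label and pairs from the title stem that both horns of a dam share, since the series design names paired controls. Deviations from the group means correlated at 0.474, 0.621 and 0.413 across genes within pairs.

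The test was edgeR's (version 4.0.16, R 4.3.3; TMM, filterByExpr, robust quasi-likelihood F-test, two-sided, dam plus treatment, or the dam term, Benjamini-Hochberg adjusted p below 0.05). After filtering, 12276 genes remained, with 99.95% of counts. SEs were the log2 difference divided by the root of F. Differences within pairs used a prior count of 2, and their counting intervals were exact binomial at 95%. The procedure was tested on simulated data. Alternatives included DESeq2 1.42.0 and limma 3.58.1 voom. Besides the 9 genes, the rule named the 3 highest and 3 lowest tested genes of each list that is not of cell type markers, any of it that passed, and the 5 nearest profiles. Egr4, Npas4, Hspa1b, marker genes and list members given as examples were named outside it. Members and lists were chosen with earlier results of these data known. Promoters came from RefSeq (GRCr8). No genome was used. One upstream gene, left out for a reason unrelated to its values, is not reported here.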

Additional observations from a re-analysis of the deposited data

How the results depend on the processing

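Under the 11 alternatives 0 of the 9 genes were called between the labelled groups, and the edgeR adjusted p, or that of DESeq2 or voom, was at least 0.298 (Fosl1 without pair 3). Signs held except when 1 pair was left out. Over those 3 settings Fos ranged from -0.14 to 0.31, Fosb from -0.79 to 0.04, Fosl1 from -0.82 to -0.22, Jun from 0.13 to 0.33, Junb from 0.06 to 0.35, Egr1 from -0.27 to 0.75, Ier2 from -0.31 to 0.07, Nr4a1 from 0.11 to 1.01 and Dusp1 from -0.45 to -0.16. Fos and Egr1 (-0.01) turned without pair 3, Egr1 without pair 1 (-0.27), and Fosb (0.044) and Ier2 (0.073) without pair 2. With no replicate block 0 of the 9 and 0 of all genes were called, with 192 of all genes at an unadjusted p below 0.05, and the block changed no other call on the 9 genes. The number of all genes called, 2, became 4 with upper-quartile factors and with voom, 18 with no filter, 5 when genes needed a mean count of 50, 106 with DESeq2 (21 higher, 85 lower) and 18 to 55 without 1 pair. DESeq2 called 2 genes of the other lists, Dusp2 and Ctgf, where edgeR called 0. Between dams the 1 member called became 2 with total counts only (Fosl1 and Fos), 2 with DESeq2 (Fosl1 and Nr4a1) and 0 to 3 without 1 pair. Genes called between dams, 2795, ranged from 216 to 3878 without 1 pair. Leaving out 1 library removes its pair from the blocked fit. With 3 pairs the 95% intervals of the 9 genes still span differences in both directions. Their upper ends lay from 0.14 (Dusp1) to 1.34 (Nr4a1) log2 units. Their lower ends lay from -0.15 (Jun) to -1.23 (Fosb).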
